A study of Homo sapiens with 6 samples.

Results

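The genes described here encode the subunits of the proteasome and the proteins that build or regulate it. They are the protein-coding rows of the deposited expression table whose GENCODE 29 symbol begins with PSMA, PSMB, PSMC, PSMD, PSME, PSMF or PSMG, without PSMB8 and PSMB9. The rule took 47 of 19669 protein-coding rows and used no measured value. MDA-MB-231 is an established human breast cancer line of the basal-like subtype, here in a pair of derivatives. One derivative, shHOTAIR, expresses a tetracycline-inducible hairpin against the long non-coding RNA HOTAIR, and the other, shCtrl, an inducible scrambled hairpin. Both were given 1 µg/ml doxycycline for 96 h, so the controls carry the drug as well, and 3 independent repeats of each gave 6 poly(A) RNA libraries. The labels name 1 derivative per hairpin and do not say whether it is a clone, so a p-value here sets the difference between the derivatives against the spread of their repeats.

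The proteasome degrades proteins that carry ubiquitin chains. Its core particle is a barrel of stacked rings, with alpha subunits outside and beta subunits inside, and 3 of the beta subunits carry the proteolytic sites. The regulatory particle caps the barrel. It recognises ubiquitin chains, removes them, unfolds the substrate with a ring of ATPases and feeds it into the core. Other caps, the activators, open the barrel without ubiquitin, and dedicated chaperones assemble both particles. Rapidly growing and secreting cancer cells depend on it, and proteasome inhibitors are used against some blood cancers.

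Expression was given as FPKM, fragments scaled by transcript length and library depth. The number of fragments behind each value is unknown. Over the 11587 protein-coding genes tested, the median level per library ran from 19.96 to 20.5 FPKM, and 27416 to 28036 genes were above 0 in shCtrl and 28357 to 29392 in shHOTAIR. FPKM summed over all rows was 2224150 to 2569505 in shCtrl and 1620978 to 1820768 in shHOTAIR, without overlap. With median-of-ratios or quantile scaling the 13 members that changed kept their calls. HOTAIR did not exceed 0.0132 FPKM in any library (exact two-sided permutation p = 0.4, with 0.1 the smallest that 3 against 3 allows), so the hairpin's effect on its target could not be checked. The labelled cell type was borne out by VIM, CD44, EGFR, KRT8 and KRT18, which lay between 70.4 and 977 FPKM, while ESR1, PGR, EPCAM and CDH1 did not exceed 0.114 FPKM. The first 5 were not all level between the derivatives. VIM was at 906 to 977 FPKM in shCtrl and 361 to 411 FPKM in shHOTAIR. EGFR (70.4 to 80.9 against 150 to 165 FPKM), KRT8 (130 to 151 against 197 to 263) and KRT18 (142 to 160 against 207 to 251) were higher in shHOTAIR, and CD44 overlapped. Markers of other cell types were low, and their sums did not overlap between the derivatives. The 5 leukocyte markers, none at a mean of 1 FPKM, summed to 0.839 to 1.58 FPKM in shCtrl and 0.392 to 0.829 FPKM in shHOTAIR. The 5 fibroblast markers, of which COL1A1 alone reached 1 FPKM, summed to 1.53 to 2.34 and 3.68 to 4.30 FPKM, and the 5 endothelial markers, of which KDR alone did, to 1.62 to 2.01 and 2.23 to 3.00 FPKM. Their part in the results was not tested. In bulk RNA a change in the share of cells that express a gene cannot be told apart from a change in RNA per cell.

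Proteasome genes were abundant in both derivatives and, as a set, hardly shifted between them. Of the 47 genes 45 reached the minimum mean of 1 FPKM and were tested, 42 of them lay above 20.6 FPKM, the median mean level of protein-coding genes, and 40 had a mean of at least 50 FPKM, a level reached by 26.1% of the protein-coding genes tested. In limma on log2(FPKM + 1), with Benjamini-Hochberg adjustment over all 15934 genes tested and a threshold of 0.05, 6 members were higher in shHOTAIR and 7 lower. That is 28.9% of the 45, beside 23.8% of all genes tested and 28.7% of the protein-coding ones. By direction, 13.3% of members were higher and 15.6% lower, beside 11.5% and 12.4% of all genes tested. The share of proteasome genes that changed was therefore near that of other genes. The groups did not overlap for 20 of the 45 members, 7 higher and 13 lower, beside 43% of all genes tested (19.9% higher and 23.2% lower). The median log2 change of the members was -0.01 and that of all genes tested -0.03. The median absolute log2 change was 0.19 for members and 0.24 for all genes tested.

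Levels kept their order. Across the 45 members, the group means of the derivatives had a Spearman rho of 0.96, given as a description since all points come from the same 6 libraries. The summed FPKM of the 14 constitutive core subunits was 3077, 3112 and 3292 in shCtrl 1, 2 and 3 and 3303, 3023 and 3171 in shHOTAIR 1, 2 and 3. The 17 subunits of the regulatory particle that the rule takes summed to 2696, 2773 and 2884 FPKM in shCtrl. In shHOTAIR they summed to 2932, 2926 and 2957 FPKM. The core sums overlapped between the derivatives, and these regulatory sums did not. They leave out ADRM1 and SEM1, subunits of the particle whose symbols the rule does not take. ADRM1 was at 138, 114 and 130 FPKM in shCtrl against 98.0, 119 and 139 FPKM in shHOTAIR. SEM1 was at 84.6, 76.6 and 88.8 FPKM in shCtrl against 69.5, 90.6 and 112 FPKM in shHOTAIR. With both added, shHOTAIR 1 would lie just below shCtrl 3, so the sums would overlap. The gap in the sum of 17 rested on 1 gene. Without PSMD2 that sum was 2209, 2232 and 2338 FPKM in shCtrl and 2208, 2200 and 2258 FPKM in shHOTAIR, which overlapped.

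**Figure D1:**
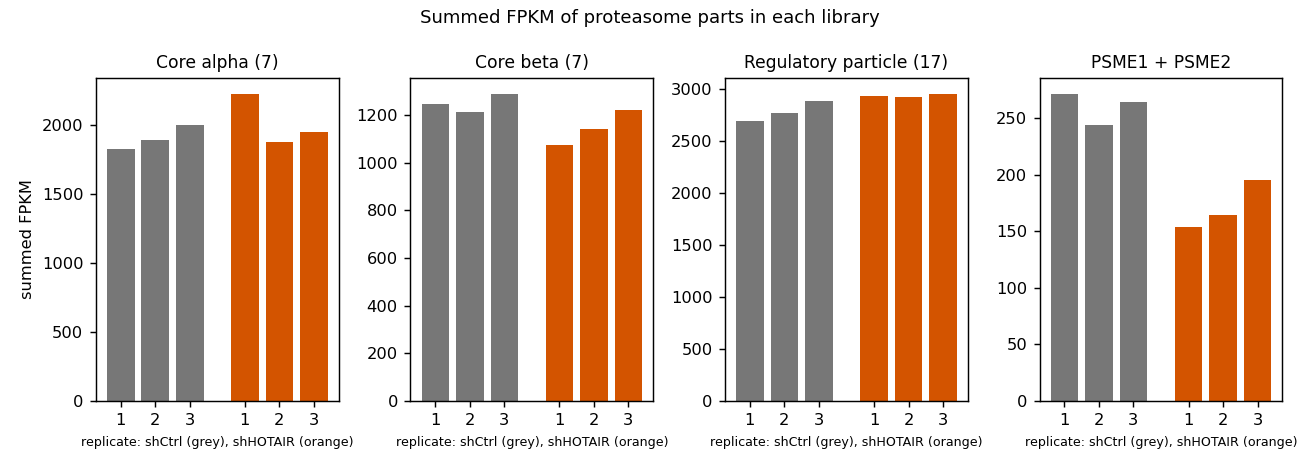
Bars give the summed FPKM (vertical axis) of 7 alpha subunits, 7 beta subunits, 17 regulatory particle subunits, and PSME1 with PSME2, in each library (replicates 1 to 3, shCtrl in grey, shHOTAIR in orange). The summed activator genes PSME1 and PSME2 lie between 244 and 272 FPKM in shCtrl and between 154 and 196 FPKM in shHOTAIR. The sum of the 17 regulatory genes, which leaves out ADRM1 and SEM1, is slightly higher in all 3 shHOTAIR libraries.

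In the outer alpha ring of the core, which gates entry to the barrel, none of the 7 subunits tested passed, beside 23.8% of all genes tested. Their log2 changes ran from -0.01 to 0.18 with a median of 0.09. PSMA7 and PSMA1 were the most abundant. PSMA7 was at 490, 530 and 614 FPKM in shCtrl 1, 2 and 3 and at 511, 566 and 538 FPKM in shHOTAIR 1, 2 and 3, and its 95% interval for the log2 change ran from -0.25 to 0.23. PSMA1 was at 348, 382 and 387 FPKM in shCtrl against 570, 356 and 373 FPKM in shHOTAIR. The shHOTAIR 1 library stood apart for PSMA1, and the other 2 shHOTAIR libraries lay within the control range (interval -0.29 to 0.66). PSMA1 shares its strand and span with AC018523.2, a gene annotated as protein-coding at a mean of 169 FPKM, so fragments may have been divided between them. Their sum was still highest in shHOTAIR 1, at 759 FPKM, against 478 to 576 FPKM in the other 5 libraries.

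The least abundant alpha subunits were PSMA4 and PSMA2. PSMA4 was at 104, 118 and 119 FPKM in shCtrl against 123, 124 and 123 FPKM in shHOTAIR, without overlap, and did not pass (log2 change 0.12, adjusted p = 0.239). PSMA2 was at 131, 125 and 136 FPKM in shCtrl against 149, 133 and 139 FPKM in shHOTAIR, with overlapping groups. PSMA3 (log2 change 0.06, interval -0.16 to 0.29), PSMA5 (0.05, -0.20 to 0.29) and PSMA6 (0.09, -0.17 to 0.35) overlapped as well. PSMA8, the alpha subunit of the testis form of the proteasome, was listed at 0 in 5 libraries and at 0.0215 FPKM in shHOTAIR 1, and was not tested.

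The inner beta ring holds the proteolytic sites. Of its 8 genes tested 1 rose and 2 fell, beside the 23.8% called among all genes, and the median log2 change was -0.21. The caspase-like subunit PSMB6 (chromosome 17, 4796144 to 4798503, plus strand, GRCh38) was at 143, 146 and 151 FPKM in shCtrl 1, 2 and 3 and at 118, 116 and 118 FPKM in shHOTAIR 1, 2 and 3. All shHOTAIR values lay below all shCtrl values, a fall of 0.32 on the log2 scale (SE 0.0448, limma adjusted p = 0.00655). The other catalytic subunits lay lower as well, without passing. PSMB5, the chymotrypsin-like subunit and the main target of proteasome inhibitors, was at 161, 141 and 160 FPKM in shCtrl against 118, 138 and 137 FPKM in shHOTAIR (log2 change -0.23, interval -0.45 to -0.01, adjusted p = 0.121). PSMB7, the trypsin-like subunit, was at 97.4, 93.5 and 108 FPKM in shCtrl against 84.5, 88.6 and 87.8 FPKM in shHOTAIR (log2 change -0.19, adjusted p = 0.0961). For each of these 3 genes the groups did not overlap, which held in the lower direction for 23.2% of all genes tested. Their summed FPKM was 401, 381 and 419 in shCtrl and 321, 343 and 344 in shHOTAIR.

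PSMB2, a non-catalytic beta subunit and the least abundant constitutive one, went the other way. It was at 64.7, 61.4 and 62.5 FPKM in shCtrl against 72, 80.6 and 81.3 FPKM in shHOTAIR (log2 change 0.30, SE 0.0637, limma adjusted p = 0.0224). Its call was lost without any library but shHOTAIR 1 (adjusted p up to 0.0762). Fits with a library left out have less power for every gene, and the share of all genes passing in them was not taken. The most abundant beta subunits, PSMB4 and PSMB3, did not pass. PSMB4 was at 326, 306 and 315 FPKM in shCtrl against 286, 314 and 355 FPKM in shHOTAIR, so that the shHOTAIR values lay on both sides of the controls. PSMB3 was at 274, 296 and 297 FPKM in shCtrl against 229, 233 and 265 FPKM in shHOTAIR, without overlap (log2 change -0.26, adjusted p = 0.0613, and 0.0343 without shHOTAIR 3). PSMB1 had a log2 change of -0.10 (interval -0.26 to 0.06).

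The libraries of one derivative were not equally close within the core. The library shHOTAIR 1 was the highest of the 3 shHOTAIR libraries for 5 of 7 alpha subunits and the lowest for 7 of 8 beta subunits. Among protein-coding genes it was the highest for 35.4% and the lowest for 41.1%. The ratio of summed alpha to summed beta FPKM, over 7 genes each, was 1.46, 1.56 and 1.55 in shCtrl and 2.08, 1.65 and 1.6 in shHOTAIR, with shHOTAIR 1 farthest from the others. Without PSMA1 the summed core was at 2729, 2730 and 2905 FPKM in shCtrl against 2733, 2667 and 2798 FPKM in shHOTAIR. The part of this library in the core results was not tested, beyond leaving it out: without it PSMB10 alone of the 13 changed members lost its call.

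**Figure D2:**
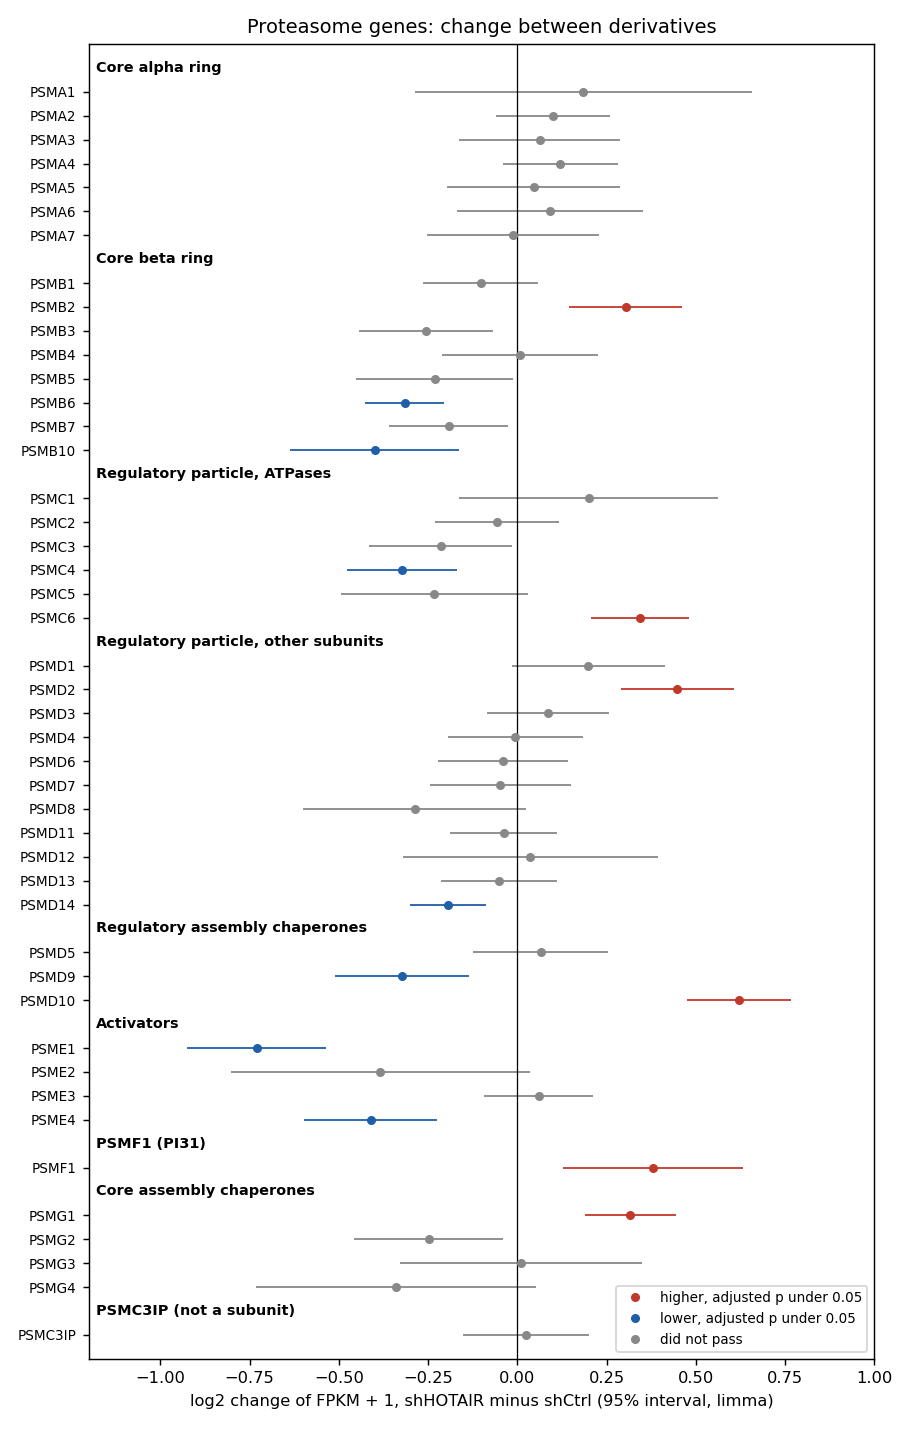
Points give the log2 change of each tested member (horizontal axis, shHOTAIR minus shCtrl on the log2(FPKM + 1) scale) with its 95% interval from limma, grouped by role, with members past the test in red (6 higher) and blue (7 lower). The alpha subunits sit close to 0, while the extremes, PSME1 at -0.73 and PSMD10 at 0.62, are an activator and an assembly chaperone.

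Several proteasome genes are induced by interferon gamma and remodel the particle for antigen processing. PSMB10 can replace PSMB7 in newly built cores, and PSME1 and PSME2 encode the alpha and beta chains of the ring-shaped activator known as the 11S regulator. The core of the interferon-stimulated response element is GAAA, 2 bases of any kind, and GAAA again. The 30-base windows of these promoters (RefSeq, GRCh38.p14) that hold it are shown because all 3 genes had lower means in shHOTAIR. The windows are chr14:24136188-24136217 (plus strand) for PSME1, chr14:24146618-24146647 (minus strand) for PSME2 and chr16:67936851-67936880 (minus strand) for PSMB10. A 4th window, chr6:3258905-3258934 (plus strand), is that of the assembly chaperone PSMG4. Capitals mark the longest string that promoters of the first 3 genes share, which is 12 bases long, or its reverse complement in PSME1.
PSME1: cgccctaccGCTTTCGCTTTCccttcgcgg
PSME2: ctggggagtGAAAGCGAAAGCccgggcgac
PSMB10: ggtaaaggcGAAAGCGAAAGCaggaagtac
PSMG4: tccggggccGAAAGCGAAAGCgcgctcggt
The string begins 28 bases before the start site in PSME2, 21 bases before it in PSMB10, 33 bases before it in PSMG4 and at base 4 of the transcript in PSME1. On either strand the element's core was in 3.57% of 35116 promoters of 300 bases and in 6 of the 50 promoters of the 41 member genes that matched the RefSeq table. By gene, it was in a promoter of 14.6% of those members and of 4.38% of all genes in the table. The longer string GAAAGCGAAAGC, which contains that core, was chosen after reading these promoters and was in 17 promoters (0.0484%) on either strand.

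PSME1 had the largest change of all members. It (ENSG00000092010, chromosome 14, 24136158 to 24138967, plus strand) was at 179, 157 and 182 FPKM in shCtrl 1, 2 and 3 and at 99.8, 101 and 111 FPKM in shHOTAIR 1, 2 and 3. The groups were far apart, and the mean fell by 40.0% (173 ± 13.5 to 104 ± 6.06 FPKM, SD, n = 3). In limma the log2 change was -0.73 with an SE of 0.0788 and an adjusted p of 0.00288. PSME2 lies on the same stretch of chromosome 14, at 24143362 to 24147570 on the minus strand. It was at 93, 86.6 and 82 FPKM in shCtrl against 54, 64.2 and 84.9 FPKM in shHOTAIR. The shHOTAIR 3 value lay inside the control range, so the groups overlapped and the gene did not pass (log2 change -0.38, interval -0.80 to 0.04, adjusted p = 0.16), though it did without that library (0.0306). The ratio of PSME1 to PSME2 was 1.92, 1.82 and 2.22 in shCtrl and 1.85, 1.57 and 1.30 in shHOTAIR, which overlapped. EMC9 overlaps PSME1 on the other strand at a mean of 13.7 FPKM, and the strand setting of the counting is not known.

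PSMB10 was expressed at a small part of the level of the subunit it can replace. It was at 6.93, 7.41 and 7.98 FPKM in shCtrl against 4.80, 5.45 and 5.97 FPKM in shHOTAIR, without overlap (log2 change -0.40, SE 0.0955, limma adjusted p = 0.0333). Its call was lost without any library but shHOTAIR 3 (adjusted p up to 0.104). The ratio of PSMB10 to PSMB7 was 0.0712, 0.0792 and 0.0738 in shCtrl and 0.0568, 0.0615 and 0.0680 in shHOTAIR. PSMB11, the thymus-specific beta subunit, was listed at 0 in all 6 libraries. Among the 6 members with the interferon element's core in a promoter, PSME1 and PSMB10 fell, and PSME2, PSMG4, PSMA4 and PSMB4 did not pass. The 369 other protein-coding genes tested with that motif had a median log2 change of -0.02, with 16.8% lower and 15.7% higher. The 8 others with the longer string, which also hold the core, had a median of -0.31, with 3 lower and 1 higher. Among all genes tested 12.4% were lower and 11.5% higher. The string was taken from promoters of genes picked for their lower means, and an effect of it was not tested.

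The remaining activators are nuclear. PSME4, a large activator that binds the end of the core, was at 81.8, 79.9 and 72.2 FPKM in shCtrl against 62.9, 56.4 and 55.9 FPKM in shHOTAIR. The groups did not overlap and the log2 change was -0.41 (SE 0.0755, limma adjusted p = 0.0146), which leaving out shHOTAIR 2, shHOTAIR 3, shCtrl 1 or shCtrl 2 raised past the threshold, to at most 0.0544. ACYP2 overlaps PSME4 on the other strand at a mean of 34.0 FPKM. PSME3, the gamma chain of the nuclear 11S activator, was at 155, 154 and 159 FPKM in shCtrl against 151, 169 and 169 FPKM in shHOTAIR, with a log2 change of 0.06 (interval -0.09 to 0.21). PSMF1 encodes PI31, first described as an inhibitor of the core. It was at 109, 109 and 107 FPKM in shCtrl against 122, 159 and 145 FPKM in shHOTAIR, higher in all 3 but widely spread there (log2 change 0.38, SE 0.101, limma adjusted p = 0.0457). Its call was lost without any library but shHOTAIR 1 (adjusted p up to 0.123).

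The regulatory particle had 2 genes higher and 2 lower of the 17 that the rule takes, or 4 of 17 beside 23.8% of all genes. Its base holds 6 ATPases that form 1 ring and are needed in equal number. PSMC6 was at 143, 151 and 149 FPKM in shCtrl 1, 2 and 3 and at 198, 180 and 185 FPKM in shHOTAIR 1, 2 and 3 (log2 change 0.34, SE 0.0555, limma adjusted p = 0.00979). PSMC4 was at 53.8, 55.7 and 59.1 FPKM in shCtrl against 42.1, 45.8 and 46.2 FPKM in shHOTAIR (log2 change -0.32, SE 0.0623, limma adjusted p = 0.017), a call lost without shCtrl 2 or shCtrl 3 (adjusted p up to 0.0567). Neither gene's groups overlapped, and they moved in opposite directions. The ratio of PSMC6 to PSMC4 was accordingly 2.65, 2.71 and 2.53 in shCtrl and 4.70, 3.93 and 4.01 in shHOTAIR. The pair was picked by those changes, so the ratio restates them, and it is no ratio of subunit numbers.

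The other 4 ATPases did not pass. PSMC5, the most abundant, was at 227, 222 and 254 FPKM in shCtrl against 174, 204 and 221 FPKM in shHOTAIR, with no overlap (adjusted p = 0.172). PSMC3 was at 154, 147 and 155 FPKM in shCtrl against 118, 133 and 143 FPKM in shHOTAIR, also with no overlap (log2 change -0.21, adjusted p = 0.114). PSMC2 was at 60.6, 55.9 and 62 FPKM in shCtrl against 53, 58.8 and 59.6 FPKM in shHOTAIR, with overlap. PSMC1 had a log2 change of 0.20 with a wide interval (-0.16 to 0.56). NRDE2 overlaps PSMC1 on the other strand at a mean of 49.8 FPKM. Of the members PSMC1 has the most annotated pseudogenes, 13, none above a mean of 0.0287 FPKM, so few fragments were listed under them.

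Among the 11 other subunits of the regulatory particle the most abundant, PSMD2, stood out. PSMD2 is a large scaffold subunit of the particle that docks ubiquitin receptors. It (chromosome 3, 184298709 to 184309054, plus strand) was at 487, 542 and 546 FPKM in shCtrl against 724, 725 and 699 FPKM in shHOTAIR. The groups were well separated, with means of 525 ± 32.7 and 716 ± 15.0 FPKM (SD, n = 3). The rise was 0.45 on the log2 scale, with an SE of 0.0636 and a limma adjusted p of 0.00655. PSMD14, the metalloprotease that cuts ubiquitin chains off substrates, was at 162, 163 and 164 FPKM in shCtrl against 143, 139 and 145 FPKM in shHOTAIR. It fell by 0.19 on the log2 scale (SE 0.0428, limma adjusted p = 0.0264), a small change that passed because the repeats were close, and its call was lost without any library but shHOTAIR 1 (adjusted p up to 0.0885).

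The other 9 of these subunits did not pass, and their log2 changes ran from -0.29 to 0.20. PSMD8, a lid subunit and the least abundant, was at 68.5, 54.5 and 66 FPKM in shCtrl against 45.3, 51.2 and 57.9 FPKM in shHOTAIR (log2 change -0.29, interval -0.60 to 0.03). PSMD1, the other large scaffold, was at 121, 125 and 135 FPKM in shCtrl against 158, 150 and 131 FPKM in shHOTAIR (log2 change 0.20, interval -0.01 to 0.41). Both overlapped between the groups. The ubiquitin receptor PSMD4 was at 79.6, 83.6 and 94.8 FPKM in shCtrl against 83.3, 87.9 and 85.2 FPKM in shHOTAIR (interval -0.19 to 0.18). PSMD13, after PSMD2 the most abundant, was at 236, 237 and 243 FPKM in shCtrl against 214, 231 and 248 FPKM in shHOTAIR. For the lid subunits PSMD3, PSMD6, PSMD7, PSMD11, PSMD12 and PSMD13 the log2 changes lay between -0.05 and 0.09.

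Genes for assembly factors moved in both directions. PSMD10, also called gankyrin, a chaperone of the ATPase ring that is also known as an oncoprotein, was at 45.9, 46.2 and 48 FPKM in shCtrl against 76.1, 67.9 and 73.3 FPKM in shHOTAIR. The groups were far apart and the mean rose by 55.1% (46.7 ± 1.14 to 72.4 ± 4.20 FPKM, SD, n = 3). Its log2 change was 0.62, with an SE of 0.0589 and a limma adjusted p of 0.00209. It has 3 annotated pseudogenes, of which PSMD10P2 reached a mean of 2.26 FPKM. PSMD9, another chaperone of that ring, was at 111, 111 and 121 FPKM in shCtrl against 83.2, 94.2 and 95.7 FPKM in shHOTAIR. It fell by 0.32 on the log2 scale (SE 0.0752, limma adjusted p = 0.0307), with the call lost without any library but shHOTAIR 1 (adjusted p up to 0.0925). WDR66 overlaps PSMD9 on the same strand at a mean of 27.6 FPKM. PSMD5, the third chaperone of the base, was at 53.1, 49.5 and 53.9 FPKM in shCtrl against 54.6, 50.3 and 59.3 FPKM in shHOTAIR, which overlapped.

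PSMG1 and PSMG2 encode partners that form a dimer and start the assembly of the alpha ring. PSMG1 was at 63.1, 63 and 61.3 FPKM in shCtrl against 78.5, 74.4 and 81.5 FPKM in shHOTAIR (log2 change 0.32, SE 0.0516, limma adjusted p = 0.01). PSMG2 was at 54.4, 53.2 and 50.1 FPKM in shCtrl against 41.8, 41.5 and 49.4 FPKM in shHOTAIR (log2 change -0.25, adjusted p = 0.0883, and 0.0306 without shHOTAIR 3). The partners thus lay on opposite sides, both without overlap of the groups. SPIRE1 and CEP76 overlap PSMG2 on the other strand at means of 45.4 and 31.8 FPKM. SPIRE1 was itself at 53.3, 49.0 and 55.2 FPKM in shCtrl against 38.0, 43.1 and 34.1 FPKM in shHOTAIR. Its part in the PSMG2 values was not tested. PSMG3 was at 32.3, 34.6 and 36.4 FPKM in shCtrl against 28.3, 36.1 and 40.5 FPKM in shHOTAIR, and its partner PSMG4 was at 5.31, 5 and 6.78 FPKM in shCtrl against 4.24, 3.51 and 5.14 FPKM in shHOTAIR. Both overlapped between the groups. PSMC3IP, which the rule takes by its symbol although it encodes a recombination factor and no subunit, was at 14.5 ± 0.686 and 14.8 ± 1.06 FPKM (SD, n = 3 per group).

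**Figure D3:**
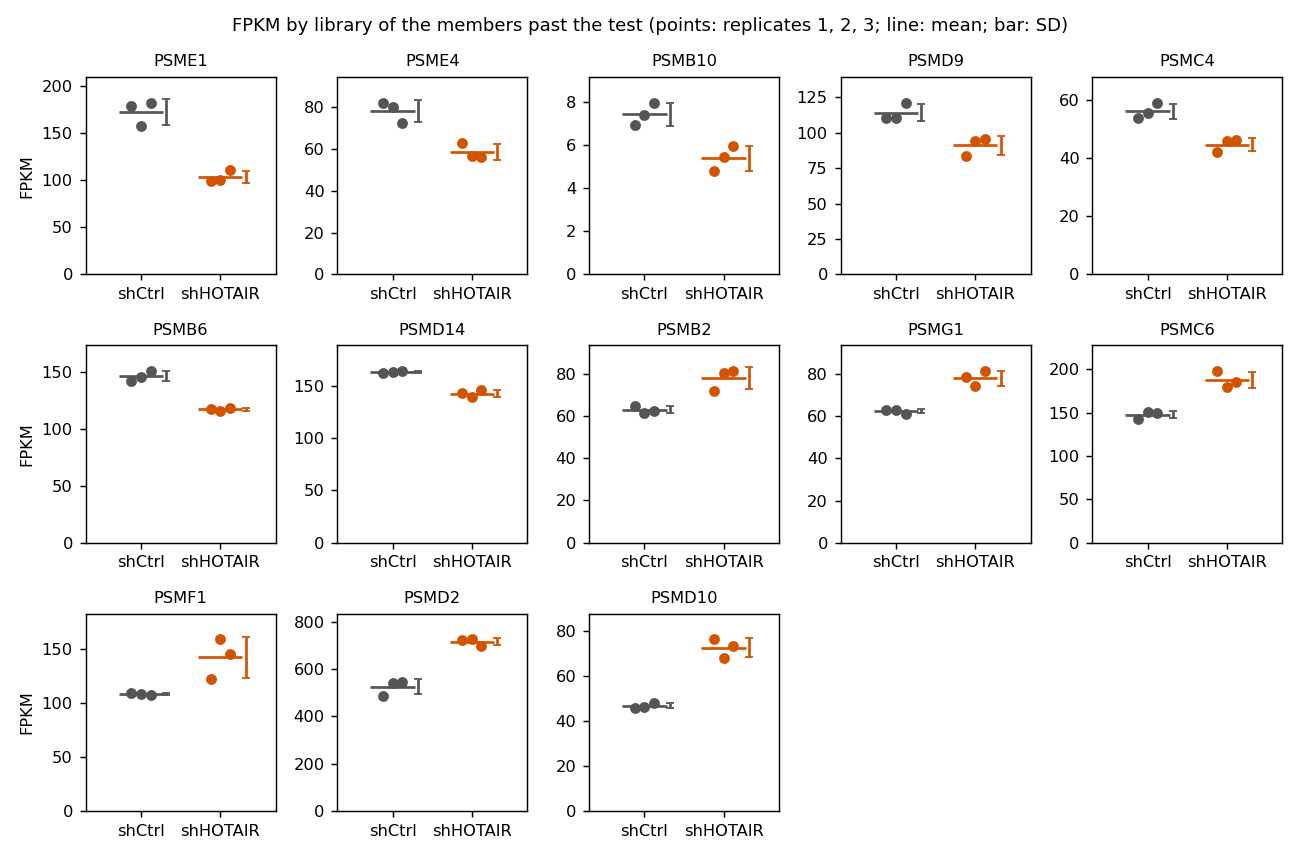
Each panel plots the FPKM (vertical axis from 0) of 1 of the 13 members past the test in every library, with the group mean as a line and the SD as a bar, ordered from the largest fall to the largest rise. The 13 genes show no overlap between shCtrl and shHOTAIR, from PSME1 (173 to 104 FPKM by group means) to PSMD10 (46.7 to 72.4 FPKM), and PSMF1 has the widest spread among its shHOTAIR values, 122 to 159 FPKM.

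Many of the changed members lay in stretches of chromosome whose other genes differed in the same direction. For each member the 50 nearest tested protein-coding genes on its chromosome, other members left out, were taken as neighbours. Across the 45 members the log2 change of the gene and the median of its neighbours had a Pearson r of 0.74 and a Spearman rho of 0.70, a description over genes that share the same 6 libraries and in part the same neighbours. The sign was that of the neighbours' median for 37 of the 45 members tested and for all 13 that changed. The share of all genes tested with such a match was not computed, and their median log2 change was itself -0.03. For PSMD9 the match was narrow, with 24 neighbours higher and 26 lower.

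Of the 6 genes that rose, 5 lay close to their neighbours. PSMD10 on chromosome X (log2 change 0.62) had 49 of 50 neighbours higher, with a median of 0.59. PSMF1 on chromosome 20 (0.38) had 46 of 50 higher, with a median of 0.40, and PSMG1 on chromosome 21 (0.32) also had 46 of 50, with a median of 0.31. For PSMB2 on chromosome 1 (0.30) 45 of 50 were higher with a median of 0.28, and for PSMD2 on chromosome 3 (0.45) 42 of 50 with a median of 0.32. These 5 genes therefore rose by about as much as the genes around them, PSMD2 somewhat more. The exception was PSMC6 on chromosome 14 (0.34), where 29 of 50 neighbours were higher and the median was 0.05. The windows of 50 neighbours spanned 5.49 Mb for PSMB2, 5.77 Mb for PSMF1 and 14 Mb for PSMD10.

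For the 7 genes that fell the neighbours' medians lay between -0.18 and -0.02. PSME1 (log2 change -0.73) had 36 of 50 neighbours lower, but the median was only -0.07. PSME4 on chromosome 2 (-0.41) had a median of -0.11, PSMD9 on chromosome 12 (-0.32) of -0.02 and PSMC4 on chromosome 19 (-0.32) of -0.09. PSMB6 on chromosome 17 had 40 of 50 neighbours lower with a median of -0.18, PSMB10 on chromosome 16 a median of -0.14, and PSMD14 on chromosome 2 a median of -0.13.

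Each gene was then taken relative to its neighbours, library by library, in an alternative chosen after seeing the data. With 50 neighbours 1 member was higher and 3 lower, and 15.6% of 15396 genes passed in all. PSMC6 (log2 change relative to its neighbours 0.29, limma adjusted p = 0.0143), PSME1 (-0.64, 0.00449), PSME4 (-0.31, 0.0284) and PSMD9 (-0.30, 0.0335) passed. PSMC6, PSME1 and PSME4 also passed with 20 and with 100 neighbours, and PSMD9 did not with 20 (0.0816). The relative changes of PSMB2 (0.01), PSMD10 (0.01), PSMF1 (-0.01) and PSMG1 (-0.02) were close to 0, and that of PSMD2 was 0.17 (adjusted p = 0.165). Subtracting the neighbours' median level in place of their median change, as first planned, left PSMC6 and PSME1 (14% of all genes passed), and PSME1 and PSMC6 were the members called by every version. PSMB6, PSMB10, PSMC4 and PSMD14 lost their calls in every version. With 50 neighbours PSMC4 (-0.24, adjusted p = 0.0648) and PSMB10 (-0.24, 0.112) kept more than PSMB6 (-0.14, 0.154) and PSMD14 (-0.03, 0.685), and with planned centring PSMC4 was at -0.31 (0.108), close to its value without centring.

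**Figure D4:**
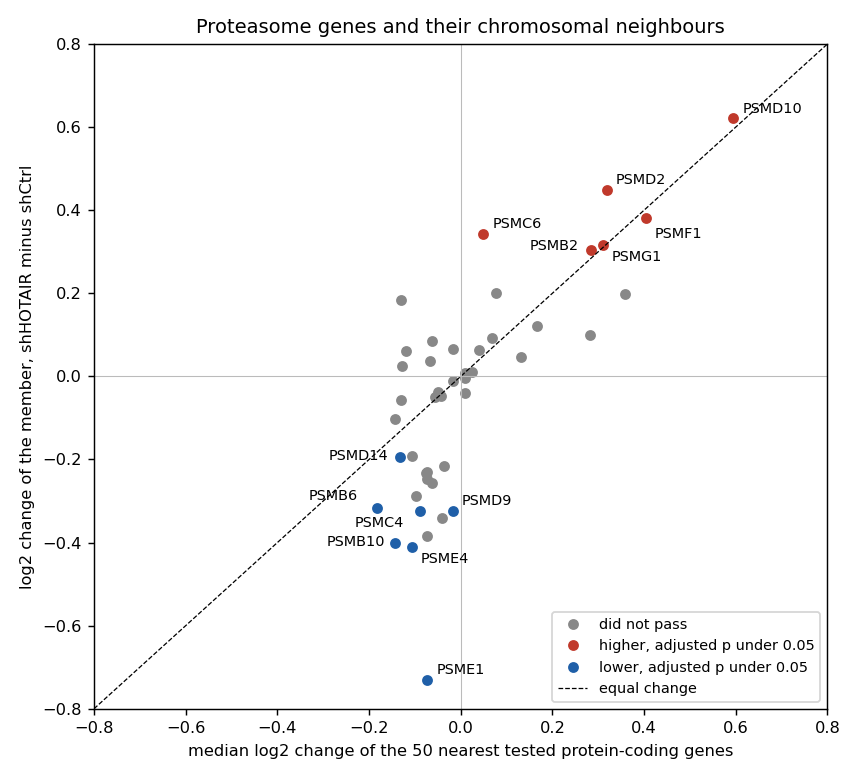
Each point is 1 of 45 tested members, with the median log2 change of its 50 nearest tested protein-coding genes on the horizontal axis and its own log2 change (shHOTAIR minus shCtrl) on the vertical axis, coloured by the test, and the dashed line marks equal change. PSMD10, PSMF1, PSMG1 and PSMB2 lie on or close to the line, while PSMC6 lies above it and PSME1, at -0.73 against -0.07, far below it.

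Other genes of the ubiquitin-proteasome pathway, outside the symbol rule, were counted from a list of 39 written from general knowledge. It held subunits such as ADRM1 and SEM1, accessory factors, deubiquitinases, ubiquitin genes, ubiquitin-conjugating enzymes and shuttle factors. All 39 were tested, 3 rose and 6 fell (23.1%, beside 23.8% of all genes tested), and the median log2 change was 0.00. TXNL1, a thioredoxin-like protein bound to the regulatory particle, was at 56.3, 58.4 and 62.8 FPKM in shCtrl against 40.3, 38.3 and 39.7 FPKM in shHOTAIR (log2 change -0.57, limma adjusted p = 0.00248). RPS27A, one of the genes that supply ubiquitin, as a fusion with a ribosomal protein, was at 676, 707 and 774 FPKM in shCtrl against 561, 552 and 536 FPKM in shHOTAIR (log2 change -0.39, limma adjusted p = 0.0124). UBE2D3, a ubiquitin-conjugating enzyme, was at 120, 117 and 125 FPKM in shCtrl against 151, 146 and 149 FPKM in shHOTAIR (log2 change 0.30, limma adjusted p = 0.00817). These 3 genes passed whichever single library was left out, and their groups did not overlap.

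Further members of the list passed with less margin. DDI2, the protease that activates the transcription factor of proteasome genes, rose (8.39 ± 0.574 to 11.2 ± 0.638 FPKM), as did UCHL5, a deubiquitinase of the regulatory particle (66.3 ± 5.24 to 83.6 ± 1.89 FPKM). UFD1, a cofactor of the unfolding ATPase VCP, fell from 263 ± 10.5 to 178 ± 28.3 FPKM, and the enzyme UBE2D1 and the shuttle factor UBQLN4 fell by 0.58 and 0.40 on the log2 scale. Each of these 5 lost its call without 3 or more of the 6 libraries (DDI2 without shCtrl 1, shCtrl 3 or shHOTAIR 2, UBE2D1 without shCtrl 2, shCtrl 3, shHOTAIR 2 or shHOTAIR 3, UCHL5 without any library but shCtrl 2, UFD1 without any but shHOTAIR 1 or shHOTAIR 3, UBQLN4 without any but shHOTAIR 2), with adjusted p up to 0.108. Relative to 50 neighbours UFD1 kept its call (log2 change -0.52, limma adjusted p = 0.0197), as did ECPAS, a proteasome adaptor and the ninth gene of the list to pass (-0.30, 0.0221; named after its values were seen). The other 7 lost theirs. PAAF1 (0.32, limma adjusted p = 0.0255), UBA6 (-0.36, 0.0102) and FAF2 (0.20, 0.0381) passed relative to 50 neighbours without having passed before. PAAF1 also passed with 20 and 100 neighbours and with planned centring. The call of ECPAS without centring was lost whichever library was left out (limma adjusted p 0.0599 to 0.115). Relative to its neighbours ECPAS passed with 100 (0.0413) but not with 20 (0.0986) or with planned centring (0.0968). Relative to their neighbours TXNL1 (-0.13, adjusted p = 0.139), UBE2D3 (-0.03, 0.698), DDI2 (0.05, 0.714), UCHL5 (0.09, 0.461) and UBE2D1 (-0.12, 0.473) lay nearer to 0, while RPS27A (-0.27, 0.0668) and UBQLN4 (-0.38, 0.0723) kept most of their change.

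The transcription factor NFE2L1 raises proteasome genes together through antioxidant response elements. Its own gene was at 88.9, 95.3 and 102 FPKM in shCtrl against 90.5, 108 and 101 FPKM in shHOTAIR (log2 change 0.06, limma adjusted p = 0.632). Relative to 50 neighbours it did not pass (0.473), though it did with planned centring (0.0409). The core of the antioxidant response element, TGACNNNGC on either strand, was in 14 of the 50 promoters of member genes (28%). It was in 13.3% of all promoters of the same length. By gene, it was in a promoter of 14 of the 41 members matched (34.1%) and of 16.1% of the 27305 genes in that table. Its matches in PSME1 and PSME2 begin 86 and 175 bases before the start, apart from the interferon motif. Of those 14 members 1 was higher (PSMG1) and 4 lower (PSMC4, PSMD9, PSME1 and PSME4), with a median log2 change of -0.24, and the 1784 other genes with it had a median of -0.03, with 13.8% higher and 15.2% lower.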

How the data were processed

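Poly(A) RNA of 3 shCtrl and 3 shHOTAIR cultures was sequenced. The authors deposited FPKM values, the unit used here. The submitters' processing notes list the build GRCh38, DESeq and TopHat2 2.0.13 without their roles. How the FPKM values were computed, and whether strand was used, is not given in those notes. Of 65198 gene rows 56807 matched GENCODE 29 by identifier. Groups follow the labels' titles.

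Values were taken as log2(FPKM + 1), without scaling. The 15934 genes whose mean reached 1 FPKM went into 1 fit with limma 3.58.1 under R 4.3.3 (intensity trend, no replicate block, Benjamini-Hochberg, threshold 0.05), run also on simulated data. The simulation drew noise for each gene independently. It held no shifts shared along a chromosome, so it cannot show how the calls behave under them. Neighbour-relative values subtract, per library, the median deviation of the 20, 50 or 100 nearest tested protein-coding genes from their own means. All members were named, those past the test or at the ends of their class by level or change with every library's value, and from the wider list the 8 smallest p. From that list ADRM1, SEM1, ECPAS, NFE2L1, PAAF1, UBA6 and FAF2 were also described, after their values were seen. Members and lists were chosen with earlier results of these data known. Promoters and their motifs, from RefSeq (250 bases before to 50 after the start), were examined after the results were seen. Alternatives were pseudocounts of 0.1 and 0.01, no minimum, a minimum of 5 FPKM, median-of-ratios and quantile scaling, limma without a trend or with robust eBayes, a replicate block, regional centring and each library left out. Python 3.11.15 was used with pandas 2.3.3, scipy 1.17.1 and matplotlib 3.10.9.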

Additional observations from a re-analysis of the deposited data

How the results depend on the processing

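Of 13 changed members PSMB6, PSMC6, PSMD2, PSMD10, PSME1 and PSMG1 kept their calls whichever library was left out. Without single libraries 4 to 6 members were higher, 2 to 7 lower and 3 to 6 of the wider list called. The share of all genes that passed in these fits was not taken. Each such fit holds a library fewer, so a lost call cannot be told apart from a loss of power over the whole table. The replicate block gave 2 higher (PSMD2 and PSMD10), 2 lower (PSME1 and PSME4) and 1 of the list, and 10.9% of all genes passed. PSMB6 (limma adjusted p = 0.0546), PSMC6 (0.068) and PSMG1 (0.0667) lost their calls with it. Deviations of same-numbered libraries from their group means correlated at -0.14, -0.07 and -0.05, and those of other pairs at -0.155 to 0.187. These values gave no sign of pairing by number, but 3 libraries per group are too few to exclude a weak one. Planned regional centring gave 1 higher, 1 lower and 5 of the list, and 14% of all genes passed. The added neighbour centring gave 1 higher and 3 lower with 50 neighbours (5 of the list), 1 and 2 with 20 (4 of the list), and 1 and 3 with 100 (6 of the list). Of all genes 15.6% passed with 50 neighbours, 14.2% with 20 and 16.5% with 100. Of the 9 list calls made without centring, 1 was among those of planned centring, and 2, 1 and 4 were among those with 50, 20 and 100 neighbours. Of the 13 members none lost its call with either other pseudocount, either scaling or robust eBayes, and PSMB3 passed with quantile normalization. Without a minimum PSMB10, PSMD9 and PSMF1 lost their calls, PSMB10 did with a minimum of 5 FPKM, and PSMD14 and PSMF1 without a trend. For the calls lost under the block the cause was not tested.

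Signs turned for PSMA7 (0.0173) and PSMD4 (0.0235) with median-of-ratios scaling, and for PSMA7 (0.0121), PSMB4 (-0.0377) and PSMD4 (0.022) with quantile normalization. With planned regional centring, which subtracts the neighbours' median level, they turned for PSMA2 (-0.18), PSMA5 (-0.0685), PSMA6 (-0.0072), PSMB1 (0.0227), PSMB2 (-0.0286), PSMB4 (-0.10), PSMC2 (0.11), PSMD1 (-0.16), PSMD6 (0.0119), PSMD12 (-0.0016), PSMD13 (0.0527), PSMD14 (0.0802), PSMF1 (-0.0893), PSMG1 (-0.0863), PSMG3 (-0.0105) and PSMC3IP (-0.0572). Over single libraries left out, ranges that crossed 0 were -0.0298 to 0.31 for PSMA1, -0.0064 to 0.15 for PSMA3, -0.0488 to 0.12 for PSMA5, -0.0837 to 0.0779 for PSMA7, -0.0729 to 0.0814 for PSMB4, -0.0254 to 0.0704 for PSMC3IP, -0.0587 to 0.0664 for PSMD4, -0.10 to 0.0105 for PSMD6, -0.11 to 0.0072 for PSMD7, -0.0738 to 0.0051 for PSMD11, -0.11 to 0.12 for PSMD12, -0.10 to 0.0022 for PSMD13 and -0.10 to 0.15 for PSMG3. Of these genes PSMB2, PSMD14, PSMF1 and PSMG1 had passed without centring. The depth behind each FPKM is unknown, so no counting error can be given.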
